A study of Mus musculus with 9 samples.

Results

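The secretory pathway and unfolded protein response are described here through 40 genes in single cells of mouse liver. The genes were taken by symbol from the 53713 lines of the gene table, each was found on 1 line, and each had at least 30 molecules in the kept cells, with a range from 64 for Chac1 to 76946 for Jchain. Livers of C57BL/6J mice aged 6 to 8 weeks were dissociated and barcoded in microwells, and each transcript was counted by its unique molecular identifier (UMI). The matrix with named genes is labelled CluKO, that is, a knockout of clusterin, and per the series' design text these animals received recombinant human clusterin during injections of carbon tetrachloride (CCl4), a toxin that scars the liver. The labels give 6 CluKO samples, the design text speaks of 3 CluKO mice, and the cell barcodes carry no sample name, so the matrix was treated as 1 pooled sample. The other samples are wild-type mice after 0, 2 and 4 weeks of CCl4, with 1 sample at each time. Rows of those 3 matrices carry no gene names, and their gene levels were not analysed here.

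Of 4694 cells in the pooled matrix, 4616 were kept, with 28702347 UMIs and a median of 4857 UMIs per cell. Clu itself was read at 13751 UMIs, or 479 counts per 1000000 UMIs (CPM), although the library is labelled CluKO, and no label says which part of the gene was deleted. Cells were put into classes by summed UMIs of marker genes that are not among the 40. A cell in 1 gate alone took that class, which held for 3939 cells, while 265 cells that passed several gates and 412 that passed none belong to no class. The 3 secretory classes are plasma-marker cells (192 cells, gated on immunoglobulin genes with Tnfrsf17, Prdm1 and Eaf2), hepatocyte-marker cells (636, gated on Alb, Apoa1, Ttr and others) and mesothelial-marker cells (504, gated on Msln, Upk3b, Wt1 and others). All 13, 13 and 12 listed markers of these classes had UMIs in their own cells. A further 6 classes held at least 50 cells, among them 1994 macrophage or monocyte, 206 neutrophil and 94 erythroid cells. No replicate check exists, so every value is a level of this pool, the intervals cover counting error only, and no test was run.

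Proteins bound for the cell surface or for secretion enter the endoplasmic reticulum (ER) through the Sec61 channel, where signal peptidase trims them and chaperones and disulfide isomerases fold them. Proteins that do not fold are drawn back out for destruction, a process called ER-associated degradation. When folding falls behind, the sensors IRE1, ATF6 and PERK start the unfolded protein response. IRE1 splices the mRNA of XBP1, ATF6 is cut to free a transcription factor, and PERK slows translation while raising ATF4, which also serves the wider integrated stress response to amino acid shortage. Plasma cells secrete antibody and depend on XBP1 for their ER, hepatocytes secrete albumin and most plasma proteins, and mesothelial cells line the liver capsule and can lay down matrix. UMI counts of gene ends do not tell spliced from unspliced Xbp1 mRNA, so the values below are transcript levels and not activity of the sensors.

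Upstream sequence was examined for the ER stress response element (ERSE: CCAAT, any 9 bases, CCACG), known to be bound by NF-Y with ATF6 or XBP1, for ERSE-II (ATTGG, any 1 base, CCACG), for the unfolded protein response element (UPRE, TGACGTGG), and for an ATF4-type amino acid response element (AARE, TTGCATCA). Both strands were searched over 250 bases before to 50 bases after the start site in the RefSeq promoter table (GRCm38.p6). Among the 40 genes, 33 were in the table, and ERSE was found in 9 of them (27.3%), against 37 of 27025 genes in the whole table (0.137%). ERSE-II was found in 2 of the 33, Herpud1 and Dnajb11, against 0.0444% of all genes. AARE was found in 2 of the 33, Chac1 and Herpud1, against 1.03% of all genes. UPRE was in 0 of the 33, against 0.714% of all genes, and its end, CGTGG, is also an arm of ERSE read on the other strand. The motifs were chosen as known elements of these responses, and ERSE-II was added after the data were seen. The shares are therefore a description and no test of the 40 genes. A match is only a match of letters. The stretches below are shown because they carry these matches; capitals mark the fixed bases of ERSE, ERSE-II or AARE, on the gene's strand, from GRCm38.p6, and positions count back from -1, the last base before the start site.
Hspa5: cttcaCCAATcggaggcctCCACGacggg
Hsp90b1: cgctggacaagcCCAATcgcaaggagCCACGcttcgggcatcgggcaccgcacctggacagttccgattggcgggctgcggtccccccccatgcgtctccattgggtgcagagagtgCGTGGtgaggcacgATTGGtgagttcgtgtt
Pdia6: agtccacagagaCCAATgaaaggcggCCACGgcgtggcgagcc
Calr: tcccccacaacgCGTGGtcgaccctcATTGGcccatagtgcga
Canx: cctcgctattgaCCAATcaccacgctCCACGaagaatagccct
Dnajc3: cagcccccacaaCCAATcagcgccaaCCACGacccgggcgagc
Creld2: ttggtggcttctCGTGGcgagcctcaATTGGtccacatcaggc
Syvn1: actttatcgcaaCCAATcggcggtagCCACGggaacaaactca
Derl3: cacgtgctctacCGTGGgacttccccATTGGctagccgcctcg
Herpud1: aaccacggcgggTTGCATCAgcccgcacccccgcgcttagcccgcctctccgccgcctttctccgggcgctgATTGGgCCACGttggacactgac
Chac1: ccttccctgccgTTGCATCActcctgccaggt
These lie, in the same order, at chr2:34772020-34772048 (plus strand), chr10:86705521-86705668 (minus), chr12:17266479-17266521 (plus), chr8:84847063-84847105 (minus), chr11:50325788-50325830 (minus), chr14:118937815-118937857 (plus), chr15:88819508-88819550 (plus), chr19:6046520-6046562 (plus), chr10:75893230-75893272 (plus), chr8:94386305-94386399 (plus) and chr2:119351037-119351068 (plus). The ERSE matches begin between -212 and -44. Hsp90b1 alone of the 9 has 2 of them, on opposite strands, from -212 to -194 and from -107 to -89. The Hspa5 stretch lies before its RefSeq start site but inside the GENCODE gene, which starts at chr2:34771970. The ERSE-II match of Dnajb11 lies after its start site and is not shown.

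Across the 9 classes the 40 genes together made up 7.30% of all UMIs in plasma-marker cells, of which Jchain held more than the rest, and 3.31% without Jchain. They made up 0.704% in hepatocyte-marker cells, 1.76% in mesothelial-marker cells, 1.36% in macrophage or monocyte cells, 0.276% in neutrophils and 0.284% in erythroid cells. Of the 40, 25 had their highest level in plasma-marker cells, and in 24 of these the counting interval did not overlap that of the next class. Mesothelial-marker cells were highest for 6, erythroid cells for 3, basophil or mast cells for 2, and hepatocyte-marker cells for 1, Trib3. The interval lay apart from that of the next class for 2 of the 6, 1 of the 3, 1 of the 2 and for Trib3. Without immunoglobulin UMIs plasma-marker cells were highest for 35, mesothelial-marker cells for Chac1 alone and hepatocyte-marker cells for Trib3 alone. The lowest level was in erythroid cells for 18 genes and in neutrophils for 12. How often all genes are highest or lowest in each class, or apart from the next class, was not counted, so these counts have no background beside them. The width of the intervals also follows the UMIs of a class, which were 1837983 in plasma-marker and 314109 in erythroid cells. The heatmap of the 40 genes by class sets these side by side.

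**Figure D1:**
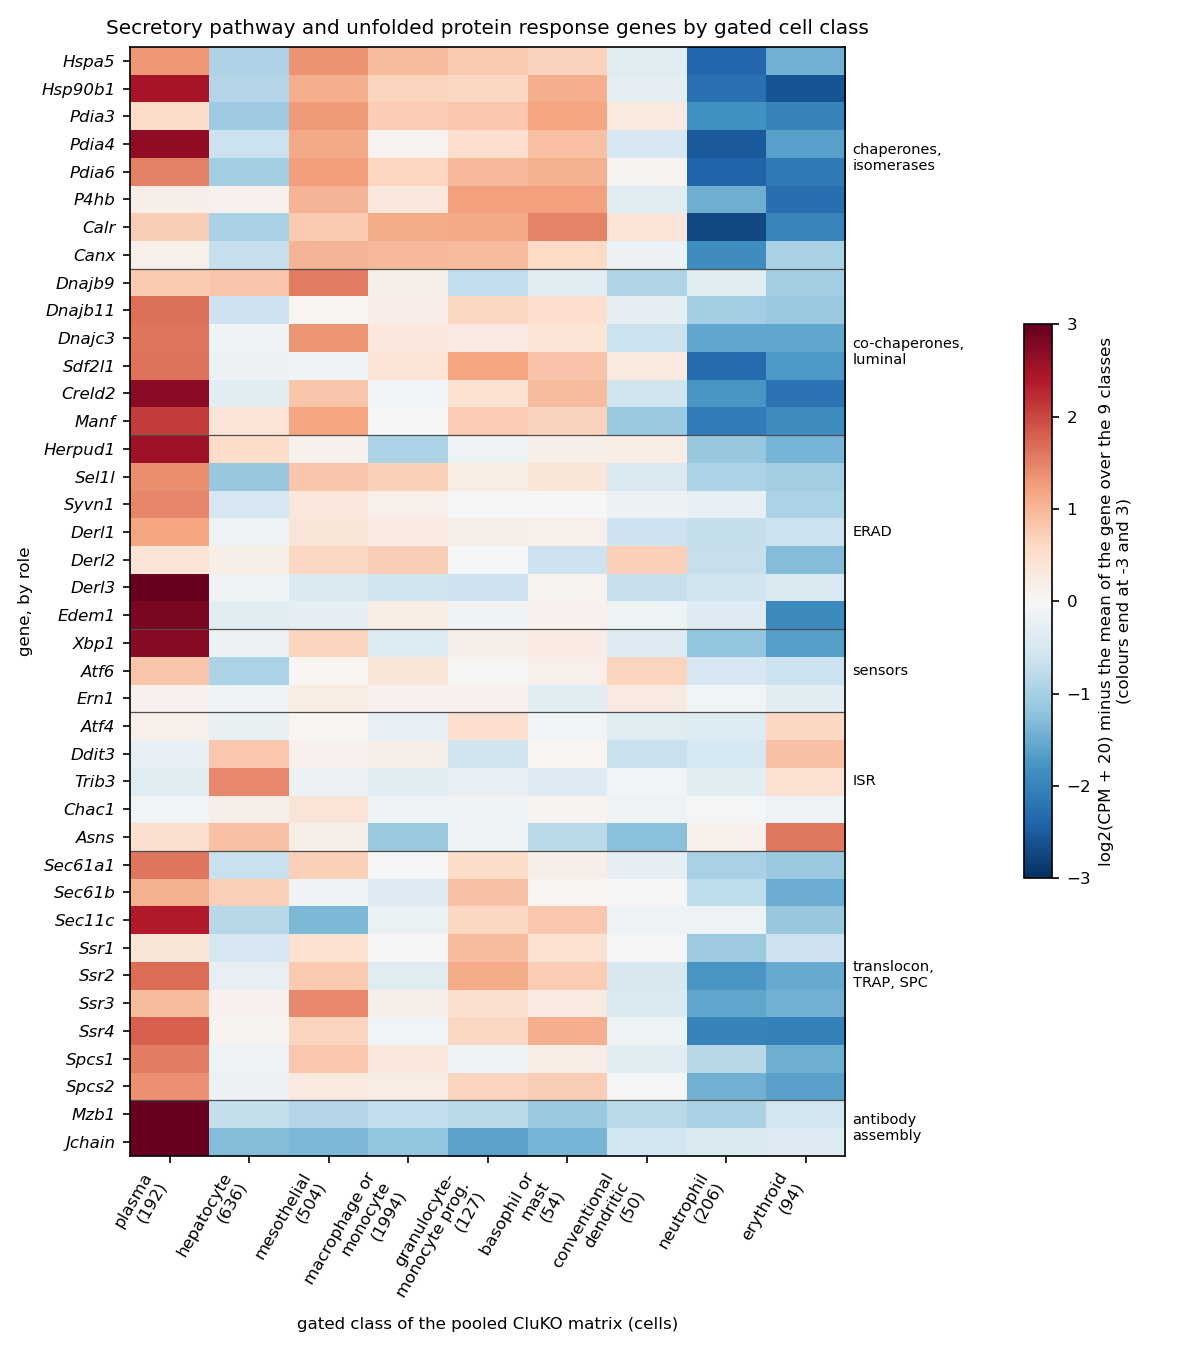
Heatmap of the 40 genes (rows, by role) in the 9 gated classes of at least 50 cells (columns, cell numbers in brackets); colour is log2(CPM + 20) minus the gene's mean over the classes. The plasma column is the darkest red for most genes outside the integrated stress response (ISR), and the neutrophil and erythroid columns are mostly blue.

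Plasma-marker cells were set against all 4424 other kept cells. A gene was called at least 2-fold higher or lower from log2 of the ratio of CPM after 20 CPM had been added to each side. By this rule 22 of the 40 genes were higher and 0 lower in plasma-marker cells, where 1.53% of 13759 genes were higher and 16.8% were lower. The median log2 ratio was 1.12 over the 40 genes and -0.40 over all genes tested. Immunoglobulin genes took 49.8% of the UMIs of plasma-marker cells, which lowers the CPM of every other gene there. With immunoglobulin UMIs taken out of the totals, a setting chosen after the data were seen, 31 of the 40 were higher and 0 lower, against 3.43% and 10.3% of all genes, and the medians were 2.09 over the 40 and -0.13 over all genes. Plasma-marker cells were also deeper, with a median of 8860.5 UMIs per cell against 4740 in the others. With every cell thinned to 1000 UMIs, 23 of the 40 were higher and 0 lower, and the share of all genes was not counted at that depth.

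The antibody assembly genes stood furthest out. Jchain encodes the chain that joins IgA and IgM into polymers, and it had 39821 CPM in plasma-marker cells, against 139.8 CPM in all other cells, a ratio of 285 (95% interval 276 to 294). Mzb1, an ER cochaperone of antibody heavy chains, had 4125 CPM in plasma-marker cells against 13.3 CPM in the others, a ratio of 310.4 (279 to 346). In the other 8 classes Jchain lay between 25.1 and 85.96 CPM and Mzb1 between 0 and 9.55 CPM. Hepatocyte-marker cells also carried immunoglobulin UMIs (0.0683% of their total), and the part of free RNA in these levels was not tested.

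Of the sensors and their factors, 1 of 3 was higher by this rule in CPM over all genes. Xbp1, the transcription factor made by IRE1 splicing, had 1809.6 CPM (1749 to 1872) in plasma-marker cells, 224 in hepatocyte-marker, 418 in mesothelial-marker, 186 in macrophage or monocyte, 288 in granulocyte-monocyte progenitor, 303 in basophil or mast, 190.4 in conventional dendritic, 101 in neutrophil and 66.9 in erythroid cells. Plasma-marker cells were thus alone at the top for Xbp1, 7.55 times the level of all other cells (7.23 to 7.87), and mesothelial-marker cells were second. Atf6, which encodes another sensor, had 70.7 CPM in plasma-marker cells against 35.96 CPM in the others, a ratio of 1.97 (1.63 to 2.36) that did not pass the 2-fold rule. Without immunoglobulin UMIs the ratio of Atf6 was 3.91 (3.23 to 4.70) and passed it. Ern1, which encodes IRE1, was read only 13 times in plasma-marker cells, at 7.07 CPM there and 7.11 CPM in the others (ratio 0.995, 0.520 to 1.74).

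ER-associated degradation genes were higher in plasma-marker cells for 5 of 7. Derl3, a derlin of the exit channel, had 325 CPM in plasma-marker cells against 3.13 CPM in the others, a ratio of 104 (82.7 to 132). Its level in the other 8 classes lay between 0 and 14.4 CPM, so few Derl3 UMIs were seen outside plasma-marker cells in this pool. Its relatives were much less uneven: Derl1 had 242 CPM against 109 CPM (ratio 2.21, 2.00 to 2.45) and Derl2 had 116 CPM against 126 CPM (ratio 0.923, 0.800 to 1.06). The direction of Derl2 depends on the scale, since without immunoglobulin UMIs its ratio was 1.84 (1.59 to 2.11). Herpud1, an ER membrane protein that brings together the degradation machinery, had 621 CPM in plasma-marker cells against 68.3 CPM in the others, a ratio of 9.09 (8.44 to 9.80). Edem1, a lectin-like protein that hands over misfolded glycoproteins, had 928 CPM against 118 CPM (ratio 7.90, 7.44 to 8.38). For the ubiquitin ligase Syvn1 and its partner Sel1l the ratios were 3.87 (3.28 to 4.54) and 2.24 (1.96 to 2.55), and Sel1l did not pass the rule once 20 CPM was added. Without immunoglobulin UMIs Sel1l passed it, at 4.45 (3.89 to 5.08).

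Co-chaperones and luminal products were higher for 5 of 6. Creld2, an ER protein with disulfide isomerase activity, had 1062 CPM in plasma-marker cells against 158 CPM in the others, a ratio of 6.74 (6.38 to 7.11). Manf, a secreted ER stress protein, had 1414 CPM against 390.2 CPM (ratio 3.62, 3.47 to 3.78). Dnajb11, Sdf2l1 and Dnajc3, partners of the chaperone BiP, had ratios of 3.25, 2.73 and 2.37. Dnajb9, a BiP partner that represses IRE1, did not pass in CPM over all genes, with 93.6 CPM in plasma-marker cells and 72.1 CPM in the others, a ratio of 1.30 (1.10 to 1.52). Without immunoglobulin UMIs it passed the rule, at 2.58 (2.19 to 3.02).

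Of the chaperones and isomerases 2 of 8 were higher in CPM over all genes. Hsp90b1 (GRP94), an ER chaperone of the HSP90 family, had 4782 CPM in plasma-marker cells against 1204 CPM in the others, a ratio of 3.97 (3.88 to 4.07). Pdia4, a disulfide isomerase, had 871 CPM against 146 CPM (ratio 5.98, 5.64 to 6.34). The other 6 did not pass the rule. Hspa5 encodes BiP, the main HSP70 of the ER, and had 2849.9 CPM in plasma-marker cells, 592 in hepatocyte-marker, 2975 in mesothelial-marker, 2248 in macrophage or monocyte, 1982 in granulocyte-monocyte progenitor, 1865 in basophil or mast, 892 in conventional dendritic, 208 in neutrophil and 411 in erythroid cells. Plasma-marker and mesothelial-marker cells thus shared the top for Hspa5 with overlapping intervals, and the ratio of plasma-marker cells to all others was 1.49 (1.45 to 1.53). Without immunoglobulin UMIs plasma-marker cells were alone at the top, with 5679.5 CPM against 2977 CPM in mesothelial-marker cells. The isomerase Pdia6 stood at 1.96 (1.87 to 2.06), and without immunoglobulin UMIs it passed the rule, with 1952 CPM in plasma-marker cells against 499.9 CPM in the others. Calr and Canx, the lectin chaperones of glycoproteins, had ratios of 0.980 (0.948 to 1.01) and 0.646 (0.594 to 0.702), and the isomerases Pdia3 and P4hb had 0.962 (0.922 to 1.00) and 0.812 (0.747 to 0.881). Without immunoglobulin UMIs these 4 ratios lay above 1, at 1.95, 1.28, 1.91 and 1.62, so their direction depends on the scale, while Hspa5 reached 2.97 (2.88 to 3.05).

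Of the translocon, TRAP complex and signal peptidase genes, 7 of 9 were higher. Sec11c, a catalytic subunit of signal peptidase, had 1546 CPM in plasma-marker cells against 236 CPM in the others, a ratio of 6.55 (6.26 to 6.85). The other signal peptidase subunits Spcs1 and Spcs2 had ratios of 2.53 and 2.36. Sec61a1 and Sec61b, subunits of the channel, had ratios of 3.16 (2.90 to 3.44) and 2.11 (2.01 to 2.21). Subunits of the TRAP complex, which sits at the channel, were not uniform: Ssr4 and Ssr2 had ratios of 3.33 and 3.30, while Ssr3 and Ssr1 had 1.48 and 1.20. Without immunoglobulin UMIs Ssr3 and Ssr1 also passed the rule, at 2.95 and 2.38.

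Of the integrated stress response genes 0 of 5 were higher and 0 lower in plasma-marker cells in CPM over all genes. Without immunoglobulin UMIs 2 of 5, Atf4 and Asns, were higher by the rule. Atf4, the transcription factor of this response, had 58.2 CPM in plasma-marker cells and 46.2 CPM in the others (ratio 1.26, 1.02 to 1.54). Ddit3 (CHOP), a target associated with cell death, had 25 UMIs and 13.6 CPM in plasma-marker cells against 25.7 CPM in the others (ratio 0.530, 0.340 to 0.788). Trib3 was read once and Chac1 2 times in the 192 plasma-marker cells, with ratios of 0.0661 (0.00167 to 0.372) and 0.471 (0.0559 to 1.78). On that scale the ratio of Ddit3 was 1.05 (0.677 to 1.57), and those of Atf4 and of Asns, asparagine synthetase, were 2.50 (2.04 to 3.05) and 3.66 (2.89 to 4.59).

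**Figure D2:**
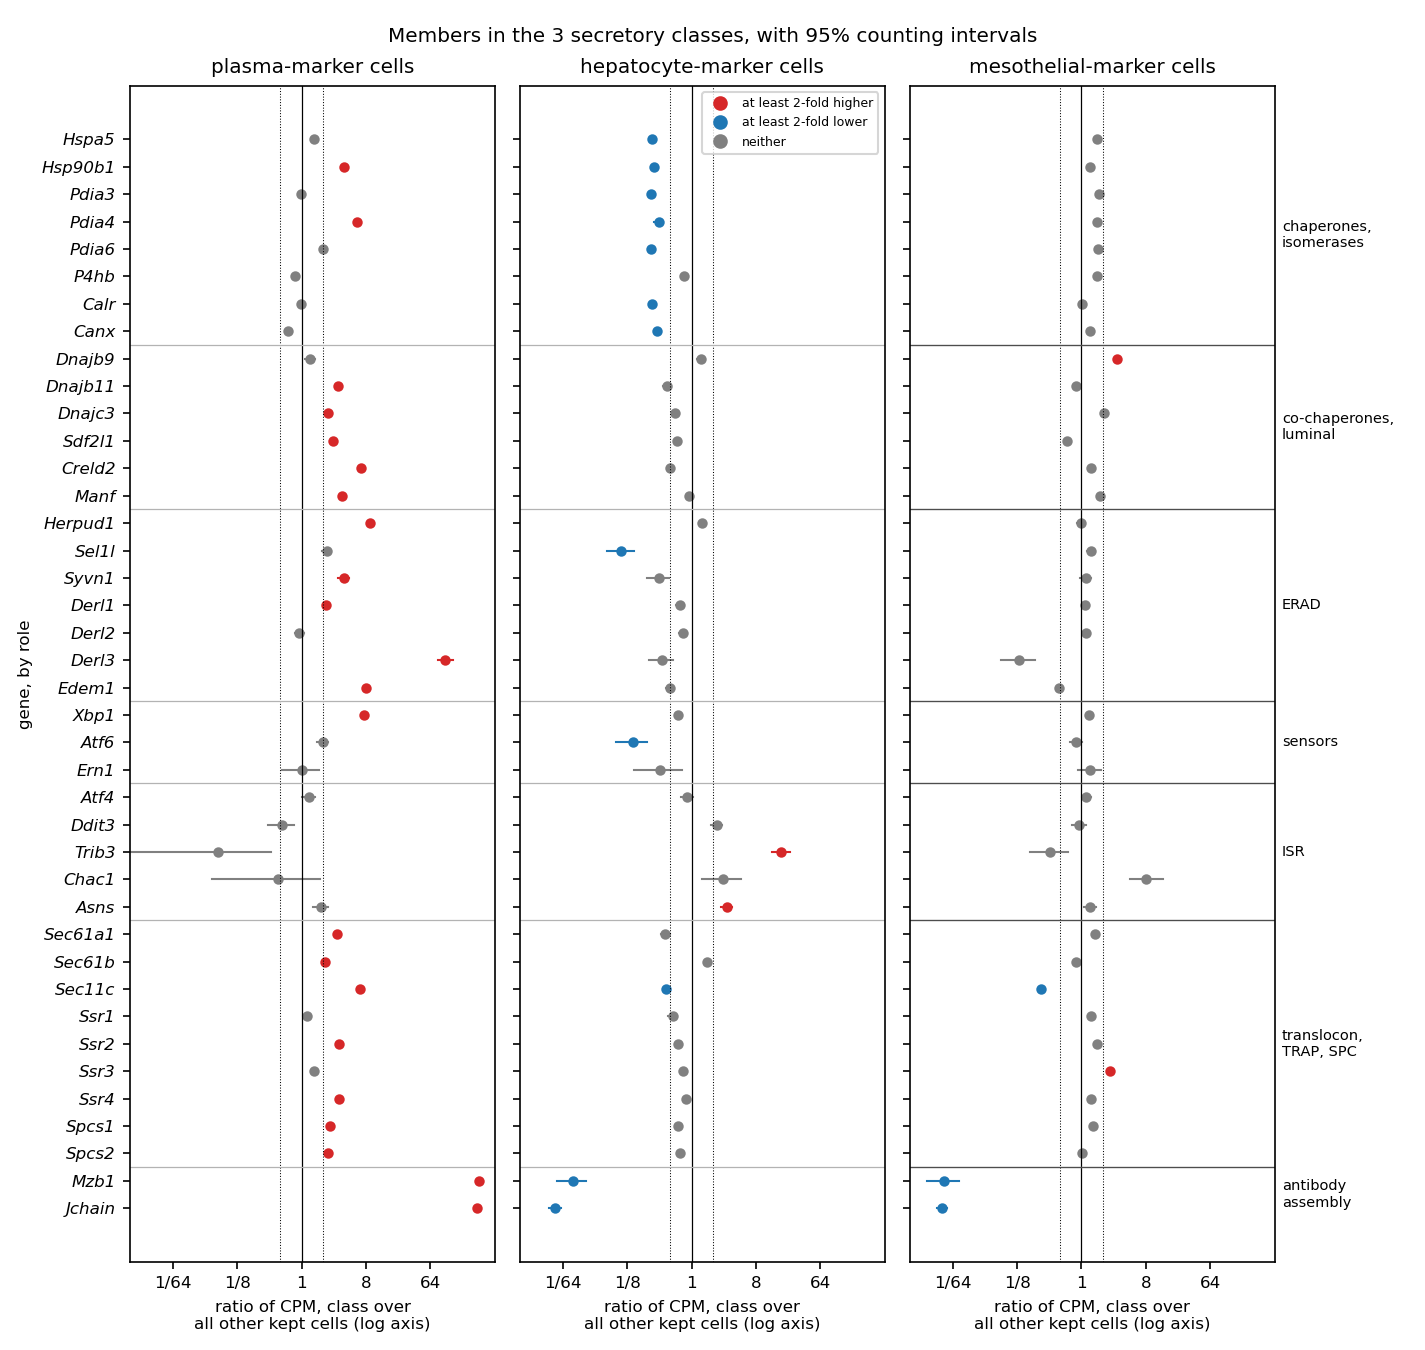
Ratio of CPM in each secretory class over all other kept cells (log axis, points) with 95% counting intervals (lines) for the 40 genes by role; dotted lines mark 2-fold, and colour marks the call made after adding 20 CPM. In CPM over all genes, plasma-marker cells show red points in every role except the integrated stress response (ISR), hepatocyte-marker cells show blue chaperones with red Trib3 and Asns, and mesothelial-marker cells stay mostly within 2-fold.

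Hepatocyte-marker cells were set against the other 3980 kept cells. Only 2 of the 40 genes were higher and 12 were lower, where 8.0% of 13759 genes were higher and 11.4% were lower, and the median log2 ratio was -0.61 over the 40 and -0.13 over all genes. Both higher genes, Trib3 and Asns, belong to the integrated stress response. Among the 12 lower were 7 of the 8 chaperones and isomerases. Calr had 608 CPM in hepatocyte-marker cells against 2213 CPM in the others, a ratio of 0.275 (0.262 to 0.288). Hspa5 had 592 CPM against 2126 CPM (ratio 0.279, 0.265 to 0.292) and Pdia3 372 CPM against 1383 CPM (ratio 0.269, 0.253 to 0.286). P4hb was the chaperone gene that did not pass, at 319 CPM against 413 CPM (ratio 0.771, 0.720 to 0.825). Atf6 and Sel1l were lower, with 6.21 CPM against 41.8 CPM and 7.59 CPM against 74.1 CPM. Jchain, Mzb1 and Sec11c were also lower, against a set of cells that includes the plasma-marker cells. Sec61b had 868 CPM in hepatocyte-marker cells against 535 CPM in the others (ratio 1.62, 1.55 to 1.69). Hepatocyte-marker cells were shallower, with a median of 3342 UMIs against 5190.5, and held 0.400% mitochondrial UMIs.

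Trib3, a pseudokinase induced by ATF4 and CHOP, had 0.544 CPM in plasma-marker cells, 51.04 in hepatocyte-marker, 3.12 in mesothelial-marker, 1.21 in macrophage or monocyte, 2.15 in granulocyte-monocyte progenitor, 0 in basophil or mast, 5.01 in conventional dendritic, 1.13 in neutrophil and 15.9 in erythroid cells. Hepatocyte-marker cells were above every other class for Trib3, and their 148 UMIs gave 17.8 times the level of all other cells (13.4 to 23.9). These UMIs came from 10.4% of hepatocyte-marker cells, and the cell with most of them held 6.08%. Asns had 67.6 CPM in hepatocyte-marker cells against 21.9 CPM in the others, a ratio of 3.09 (2.61 to 3.64), yet erythroid cells were higher still at 121 CPM (85.6 to 166). Ddit3 had 49.7 CPM against 22.1 CPM, a ratio of 2.24 (1.86 to 2.70) that did not pass once 20 CPM was added, and erythroid cells had 54.1 CPM (31.5 to 86.7). Atf4 itself had 41.04 CPM in hepatocyte-marker cells and 47.7 CPM in the others (ratio 0.861, 0.707 to 1.04). Across the 636 cells the Pearson correlation of log counts was 0.36 for Trib3 with Ddit3, 0.18 for Trib3 with Asns and 0.055 for Atf4 with Asns, where the median over all pairs of the 40 genes was 0.098; the cells share 1 pool and differ in depth. Hepatocyte-marker cells also carried 20149 CPM of erythroid markers, and the part of red cell RNA in these levels was not tested.

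**Figure D3:**
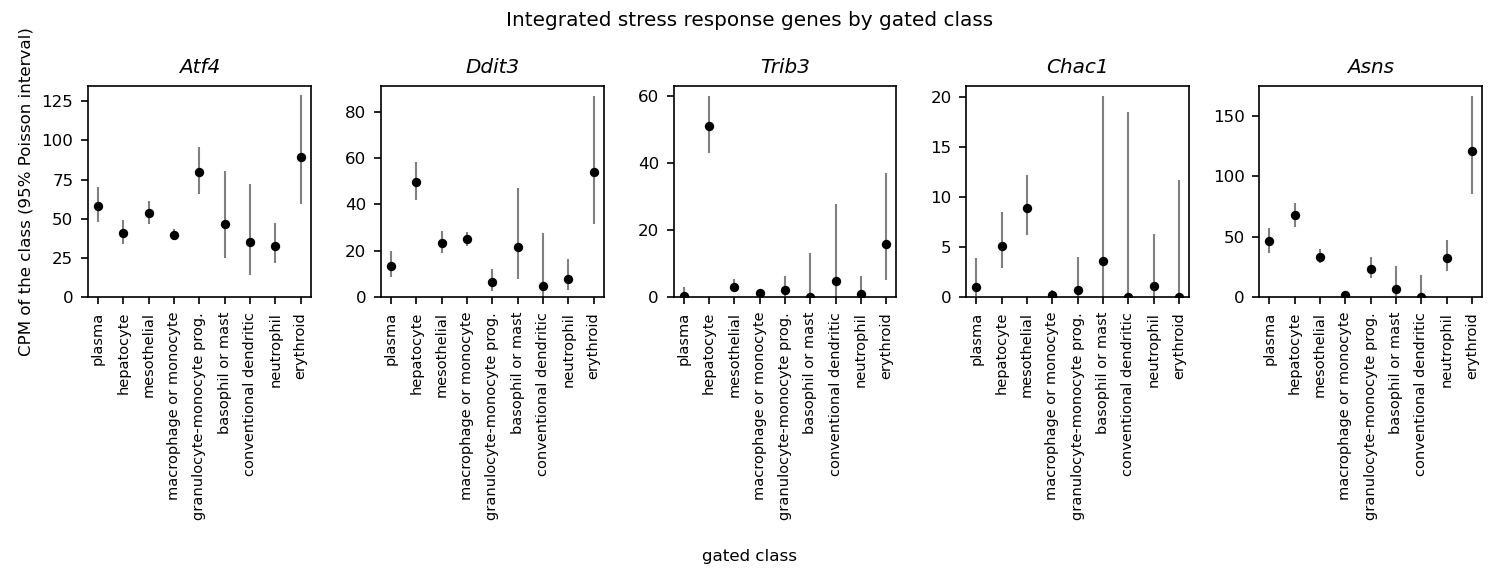
CPM of the 5 integrated stress response genes in the 9 gated classes (points, linear axes from 0) with 95% Poisson intervals (lines). Trib3 peaks in hepatocyte-marker cells at 51.0 CPM and Asns in erythroid cells at 121 CPM. Chac1 is highest in mesothelial-marker cells at 8.88 CPM, with an interval that overlaps that of hepatocyte-marker cells at 5.17 CPM.

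Within hepatocyte-marker cells the chaperones were far from even. Cells were split at the median albumin share of the class into 318 high-albumin and 318 low-albumin cells of like depth, with medians of 3373.5 and 3313.5 UMIs. Of 34 genes with enough UMIs, 19 were at least 2-fold higher and 0 lower in high-albumin cells, where 4.43% of 6951 genes were higher and 0.0719% lower. All 8 chaperones and isomerases were among the 19. Hspa5 had 1046 CPM in high-albumin cells against 109.7 CPM in low-albumin cells, a ratio of 9.54 (8.08 to 11.3). Hsp90b1 had 783 CPM against 98.3 CPM (ratio 7.97, 6.67 to 9.58) and Pdia6 268 CPM against 34.9 CPM (ratio 7.68, 5.70 to 10.6). An Hspa5 UMI was seen in 62.6% of high-albumin cells (57.0 to 67.9) and in 22.6% of low-albumin cells (18.2 to 27.6). The cell with most of them held 14.8% of the Hspa5 UMIs of high-albumin cells and 27.3% of those of low-albumin cells, and without these cells the levels were 912 CPM in high-albumin cells and 80.6 CPM in low-albumin cells.

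Other roles followed less or not at all. Dnajc3, Dnajb9, Dnajb11 and Creld2 had ratios of 5.49, 3.52, 3.40 and 3.06, and Manf 1.96. Ssr2, Sec61a1, Ssr3, Ssr1 and Spcs2 had ratios between 2.32 and 3.43, against 0.860 (0.795 to 0.931) for Sec61b. Xbp1 had 247 CPM in high-albumin cells and 199 CPM in low-albumin cells (ratio 1.24, 1.06 to 1.45). Asns and Atf4 had ratios of 0.690 (0.513 to 0.924) and 0.988 (0.678 to 1.44), and none of the 4 integrated stress response genes with enough UMIs passed the rule. Trib3 was above other cells on both sides of the split, at 22.2 times (16.2 to 30.4) the level of cells outside the gate in high-albumin cells and 13.2 times (9.07 to 18.98) in low-albumin cells.

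Other measures differed along with albumin. Mitochondrial UMIs made up 0.625% of high-albumin cells and 0.161% of low-albumin cells, and the nuclear RNA Malat1 had 3043 CPM in high-albumin cells and 451 CPM in low-albumin cells. Summed hepatocyte markers other than Alb had 41679 CPM in high-albumin cells and 23650.4 CPM in low-albumin cells. Of the UMIs of high-albumin cells 0.992% came from the 40 genes, against 0.398% in low-albumin cells. The part of RNA quality in these differences was not tested.

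The direction of the chaperone difference depends on how the hepatocyte-marker cells are divided. The same cells were divided by the share of each of 11 other hepatocyte markers in turn, at the median or, where that was 0, by whether a UMI was seen, a setting chosen after the data were seen. Hspa5 was higher on the side with more of the marker for 8 of the 11, with intervals above 1, and lower for 3, with intervals below 1. By Apoa1, an apolipoprotein, Hspa5 had 1074 CPM in high-Apoa1 cells against 101 CPM in low-Apoa1 cells, a ratio of 10.6 (8.96 to 12.7). In that division 20 of 34 genes were higher and 0 lower, where 5.21% of all genes tested were higher and 0.101% lower. By Fgb, a fibrinogen chain, the ratio was 8.23 (7.04 to 9.66). By Ass1, an enzyme of the urea cycle, it turned round: Hspa5 had 197 CPM in high-Ass1 cells against 926 CPM in low-Ass1 cells, a ratio of 0.21 (0.19 to 0.24), with 0 of 34 genes higher and 20 lower, where 0.834% of all genes tested were higher and 1.94% lower. Mitochondrial UMIs made up 0.184% of high-Ass1 cells and 0.582% of low-Ass1 cells. By Cps1, another urea cycle enzyme, and Apoc3, an apolipoprotein, the Hspa5 ratios were 0.90 (0.81 to 0.99) and 0.77 (0.69 to 0.84), and none of the 34 genes passed the rule. Of all genes tested 0.0144% were higher and 0.23% lower by Cps1, and 0.777% higher and 0.187% lower by Apoc3. The albumin comparison is therefore a description of cells divided by albumin and of no other division.

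The comparison of hepatocyte-marker cells with the rest depends on this split. Set against cells outside the gate, high-albumin cells had 2 genes higher and 7 lower, where 7.94% of genes were higher and 10.9% lower, and low-albumin cells had 2 higher and 25 lower, where 8.39% were higher and 12.8% lower. Hspa5 stood at 0.492 times (0.467 to 0.517) the level outside the gate in high-albumin cells and at 0.0516 times (0.0437 to 0.0604) in low-albumin cells. Ddit3 passed the rule in high-albumin cells with a ratio of 2.99 (2.39 to 3.71), and Asns in low-albumin cells with 3.68 (2.98 to 4.51).

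**Figure D4:**
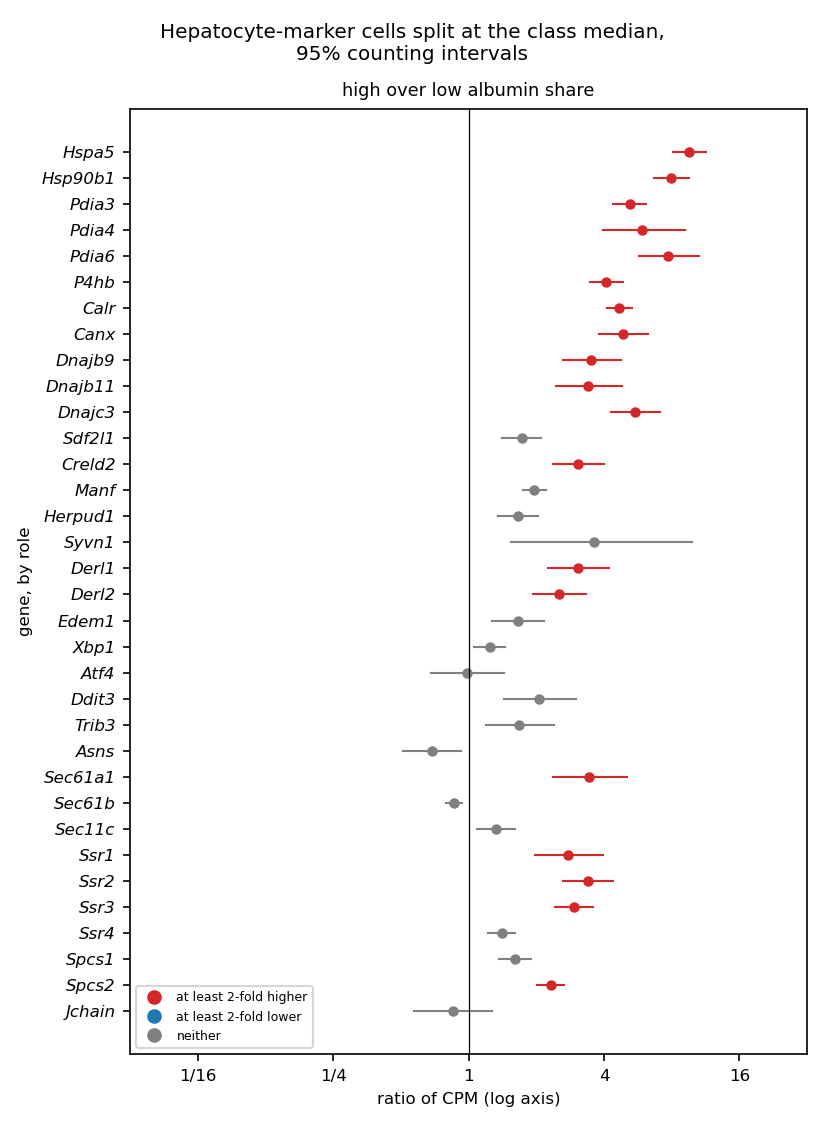
Ratio of CPM (log axis, points) with 95% counting intervals (lines) for the 34 genes with enough UMIs, high over low albumin share with 318 cells a side. Chaperone ratios lie right of 1, up to 9.54 for Hspa5, while Sec61b and Atf4 stay near 1; divided by Ass1 in place of albumin, the Hspa5 ratio was 0.21.

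Mesothelial-marker cells were set against the other 4112 kept cells. Of the 40 genes 2 were higher and 3 lower, where 8.19% of 13759 genes were higher and 6.29% lower, so neither share was far from that of all genes. The median log2 ratio was 0.29 over the 40 and 0.02 over all genes. Dnajb9 had 175 CPM in mesothelial-marker cells against 56.2 CPM in the others, a ratio of 3.12 (2.85 to 3.42), and its highest level was in this class in CPM over all genes. Without immunoglobulin UMIs Dnajb9 had 186 CPM in plasma-marker cells and 176 CPM in mesothelial-marker cells, so this order depends on the scale. Ssr3 had 545 CPM against 219.9 CPM, a ratio of 2.48 (2.36 to 2.60), again the highest class on that scale. Without immunoglobulin UMIs Ssr3 had 766 CPM in plasma-marker cells and 545 CPM in mesothelial-marker cells. Dnajc3 was 2.06 times the level elsewhere (1.96 to 2.16) but missed the rule with the added 20 CPM. The chaperone genes were close together, with ratios between 1.30 and 1.76 for Hspa5, Hsp90b1, Pdia3, Pdia4, Pdia6, P4hb and Canx, and 1.03 for Calr. An Hspa5 UMI was seen in 100% of mesothelial-marker cells, with a median over cells of 2696 CPM and quartiles of 1711 and 3942.

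The 3 lower genes were Jchain, Mzb1 and Sec11c, against a set of cells that includes the plasma-marker cells. Sec11c had 97.7 CPM in mesothelial-marker cells against 358 CPM in the others, a ratio of 0.273 (0.247 to 0.302), and this was its lowest level among the 9 classes. Derl3 and Edem1 had ratios of 0.132 (0.0737 to 0.220) and 0.485 (0.435 to 0.539) to that same set, without passing the rule. Without immunoglobulin UMIs Derl3 had 3.60 CPM in mesothelial-marker, 648 in plasma-marker, 9.66 in hepatocyte-marker and 1.13 in macrophage or monocyte cells. Edem1 had 88.9, 1850, 87.7 and 137 CPM in the same order. Chac1 encodes an enzyme that breaks down glutathione and is a target of ATF4. Of its 64 UMIs, 37 were in mesothelial-marker cells, at 8.88 CPM against 1.10 CPM in the others, a ratio of 8.07 (4.78 to 13.8) at a level too low for the rule. These came from 4.56% of the cells. Mesothelial-marker cells also carried 6719.8 CPM of stellate and fibroblast markers (6 of 8 with UMIs), whose part in these levels was not tested.

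Plasma-marker cells were also set against hepatocyte-marker and mesothelial-marker cells together, that is, against the other secretory classes. Here 22 of 40 genes were higher and 1 lower, where 2.71% of 11537 genes were higher and 23.1% lower. Jchain, Mzb1, Derl3, Sec11c and Edem1 had ratios of 1126, 833, 53.5, 12.99 and 10.5. Sec11c reached 1546 CPM in plasma-marker cells against 119 CPM in the other secretory classes. Xbp1 had 1809.6 CPM against 339 CPM (ratio 5.34, 5.07 to 5.63). The 1 lower gene was Trib3.

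Inside plasma-marker cells, 165 were IgA cells and 25 were IgG cells by their heavy-chain UMIs. None of 36 genes differed at least 2-fold between IgG and IgA cells in either direction, where 0.862% of 3943 genes were higher and 4.46% lower in IgG cells. Without immunoglobulin UMIs the counts were 0 and 0 of 36 again, against 1.73% and 7.76% of all genes. Jchain had 22977 CPM in IgG cells against 42626 CPM in IgA cells, a ratio of 0.539 (0.524 to 0.554). Herpud1 had 1029.8 CPM in IgG cells against 563 CPM in IgA cells, a ratio of 1.83 (1.58 to 2.11).

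Cycling plasma-marker cells (61 cells with at least 3 cell cycle markers) were set against 75 cells with none of them. The cycling cells were deeper, with a median of 10056 UMIs against 7633, and deeper cells show more markers. In CPM over all genes 4 of 36 genes were higher and 1 lower in cycling cells, where 35.1% of 3280 genes were higher and 1.22% lower. Immunoglobulin took 32.9% of UMIs in cycling cells and 61.8% in non-cycling cells. Without immunoglobulin UMIs, 0 of 36 genes were higher and 6 lower in cycling cells, against 14.2% and 3.07% of all genes. Jchain had 36772 CPM in cycling cells against 144289 CPM in non-cycling cells on that scale, a ratio of 0.255 (0.2502 to 0.260). Herpud1, Ssr4, Edem1, Dnajc3 and Dnajb9 were the other 5, with ratios of 0.310, 0.404, 0.426, 0.438 and 0.443. Xbp1 had 2875 CPM in cycling cells against 4389.9 CPM in non-cycling cells (ratio 0.655, 0.604 to 0.710). The genes higher in CPM over all genes, Ssr2, Ssr1, Canx and Sec61a1, had ratios there of 2.74, 2.66, 2.39 and 2.10, and without immunoglobulin 1.56, 1.51, 1.36 and 1.19.

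From cell to cell Hspa5 was set beside a few other genes. Over the 192 plasma-marker cells the Pearson correlation of log counts without immunoglobulin was 0.68 for Hspa5 with Hsp90b1, 0.67 with Manf, 0.59 with Creld2 and 0.51 with Calr. For Hspa5 with Xbp1 it was -0.22, and -0.16 with immunoglobulin in the totals. In the 75 non-cycling cells it was -0.19, and -0.04 with immunoglobulin in the totals, and in the 61 cycling cells -0.37. Xbp1 with Jchain had 0.52 without immunoglobulin in the totals and 0.14 with it. The cells share 1 library pool and differ in depth, and these values are descriptions. In mesothelial-marker cells (504 cells) Hspa5 with Xbp1 had 0.17 and in hepatocyte-marker cells 0.13, while Hspa5 with Hsp90b1 had 0.52 and 0.56.

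**Figure D5:**
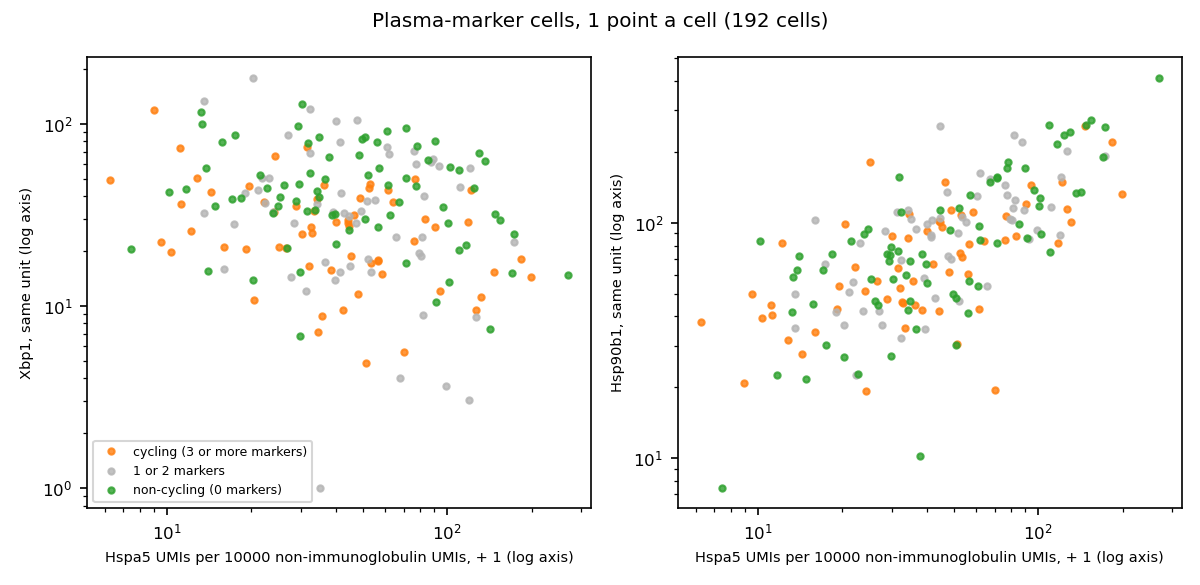
Each point is 1 of 192 plasma-marker cells; axes are UMIs per 10000 non-immunoglobulin UMIs plus 1 (log axes), for Hspa5 against Xbp1 at left and Hspa5 against Hsp90b1 at right, coloured by the number of cell cycle markers seen. Hsp90b1 climbs with Hspa5 (correlation 0.68), while Xbp1 shows no such slope (-0.22).

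In mesothelial-marker cells, 0 of 37 genes differed at least 2-fold in either direction between 156 Enpp2-positive and 348 Enpp2-low cells, where 1.53% of 9760 genes were higher and 1.35% lower. The counts were also 0 of 36 for 122 cycling against 259 non-cycling mesothelial-marker cells, against 3.39% and 0.713% of 9119 genes. Here too the cycling cells were deeper, with a median of 10116 UMIs against 6381. Dnajb9 had 113 CPM in cycling cells and 209 CPM in non-cycling cells, a ratio of 0.540 (0.446 to 0.651). Among macrophage or monocyte cells, 117 monocyte-marker cells differed from 631 Kupffer-marker cells in 3 of 36 genes, with 2 higher and 1 lower. Of 8466 genes 5.88% were higher and 8.71% lower, so the 36 genes were not called more often than all genes. Sec11c had 395 CPM in monocyte-marker cells against 180.2 CPM in Kupffer-marker cells (ratio 2.19, 1.86 to 2.57). Sec61b had 718 CPM against 344 CPM (ratio 2.09, 1.85 to 2.35). Ddit3 had 3.56 CPM against 29.97 CPM (ratio 0.119, 0.0141 to 0.442), with very few UMIs behind the lower value.

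Other genes of the pathway were counted by list, 72 of 75 having been found under their symbols. In plasma-marker cells 13 of the 72 were higher and 4 lower than in all other cells, where 1.53% of all genes tested were higher and 16.8% lower. All plasma calls and ratios in this paragraph have immunoglobulin in the totals, which lowers the CPM of other genes in plasma-marker cells. No values without immunoglobulin UMIs are given for these lists, and calls near the rule may depend on the scale. In hepatocyte-marker cells 5 were higher and 19 lower, where 8.0% of all genes were higher and 11.4% lower. In mesothelial-marker cells 8 were higher and 0 lower, where 8.19% of all genes were higher and 6.29% lower. Among other folding genes 5 of 16 were higher in plasma-marker cells. They included the disulfide isomerase Txndc5, with 1078 CPM in plasma-marker cells against 104 CPM in the others (ratio 10.4, 9.79 to 10.99), Txndc11 (7.27) and the prolyl isomerase Fkbp11 (7.10). Among other degradation genes 2 of 8 were higher, Edem2 at 6.58 (6.09 to 7.11) and the ubiquitin-conjugating enzyme Ube2j1 at 4.83. Of the 21 other translocation and N-glycosylation genes 4 were higher, with Krtcap2, Spcs3 and Srprb at 2.56, 2.70 and 3.19. Among the 11 ER exit genes Lman1, a cargo receptor, was higher at 4.16 (3.91 to 4.42), and its partner Mcfd2 was lower at 0.248 (0.172 to 0.346). Among 16 other stress factors 3 were lower, Atf3, Nupr1 and Cebpb, and 1 was higher, Phgdh of serine synthesis, at 4.02 (3.47 to 4.63). Atf3, another factor of the integrated stress response, had 2 UMIs in plasma-marker cells and 127 CPM in the others.

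The genes outside the 40 whose profile over the 9 classes was most like the mean profile of the 40 were Fkbp2 (Pearson r 0.98), Lman1 (0.98), Ergic1 (0.96), Slc35b1 (0.96) and Erp44 (0.95). Ern1, Trib3 and Chac1 have no value in this ranking. Among the rest of the 40, Pdia4, Creld2 and Hsp90b1 were closest to that mean, at 0.98, 0.98 and 0.97, and Asns and Ddit3 furthest, at -0.22 and -0.21. That mean is made from the genes' own profiles, so a high value is in part built in. The points are 9 classes of 1 pool.

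Read beside the sequences above, the 11 genes with ERSE or ERSE-II had a median log2 ratio of 1.40 in plasma-marker cells against all others, with 7 of 11 higher. The 22 genes in the promoter table without either, which include the integrated stress response genes, had a median of 0.54, with 9 of 22 higher. The 7 genes not in the promoter table had a median of 1.61, with 6 of 7 higher, and whether they carry the motifs is not known here. In high-albumin against low-albumin hepatocyte-marker cells 8 of the 11, 8 of the 22 and 3 of the 7 passed the rule, genes with too few UMIs counting as not passed. Of all genes tested 1.53% were higher in the plasma comparison and 4.43% in the albumin split. Motif carriers did not act as 1 group: with immunoglobulin in the totals Derl3 and Creld2 had plasma ratios of 104 and 6.74, and Calr and Canx, which carry the same element, had 0.98 and 0.65. Xbp1 and Edem1, at 7.55 and 7.90, held none of the 4 motifs in these windows.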

How the data were processed

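Single-cell RNA sequencing of dissociated mouse liver was carried out on a microwell platform, per the labels' protocols. The deposited matrices hold raw UMI counts per gene and cell, and all values were whole. Per the submitters' processing notes the build is GRCm38. Nothing used here names the aligner, the counting program or the rule for calling cells. Depth was 28702347 UMIs in the kept cells of the pooled CluKO matrix, with 0 barcodes listed more than once. The 3 wild-type matrices (26734, 22947 and 25021 rows) have unnamed rows and were not used.

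Cells with at least 200 genes and at most 20% mitochondrial UMIs were kept. Each of 15 classes was gated on its marker share (per 10000 UMIs of the cell: plasma 1000, hepatocyte 100, mesothelial 10) and on a minimum number of different markers (3, 4 and 3). Cells in several gates were left out of every class, no doublet caller was run, and 9 classes held at least 50 cells. Counts were summed per class and scaled to CPM. Ratios carry conditional exact binomial intervals, levels exact Poisson intervals and shares Clopper-Pearson intervals, all at 95% and for counting error only; cells are not replicates, so no p-value is given. Calls used genes with at least 30 UMIs, an offset of 20 CPM and a 2-fold rule. The code was tested on simulated data. Python 3.11.15, numpy 2.4.6, scipy 1.17.1, pandas 2.3.3 and matplotlib 3.10.9 were used.

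All 40 genes were to be accounted for by role, with up to 5 named per direction and comparison, up to 3 per list of other pathway genes by size in the plasma comparison, and the 5 genes outside the 40 with the most similar profile. The 40 genes, lists, gates, splits and motifs were chosen with earlier results of these data known. The splits within classes, the divisions by other hepatocyte markers, ERSE-II and the totals without immunoglobulin were added after seeing the data. Positions come from GENCODE vM21 and promoter sequence from RefSeq (GRCm38.p6). Retention signals at protein ends were not analysed here, and 1 further division of hepatocyte-marker cells, under which the direction of the chaperone difference turned round, is not reported here.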

Additional observations from a re-analysis of the deposited data

How the results depend on the processing

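Of 64 log2 ratios past the 2-fold rule, none changed sign in 662 repeats under other settings, divisions of hepatocyte-marker cells by other markers not counted. Of these repeats 410 lay within the counting interval and 252 moved outside it. Repeats with a count minimum of 10 leave each ratio as it was, so they could not change sign and all count among the 410. An offset of 5 CPM cannot change a sign either. Totals without immunoglobulin alone raise the CPM of plasma-marker cells, so genes already higher there could not change sign. The absence of sign changes in these repeats is therefore no check. Under totals without immunoglobulin and without the 10 most abundant genes, and under totals without immunoglobulin alone, 1 gene in place of 6 was highest in mesothelial-marker cells: of Hspa5, Pdia3, Canx, Dnajb9, Ssr3 and Chac1, only Chac1 under the second of these. With doubled marker thresholds 1 gene in place of 2 was higher in hepatocyte-marker cells than in all others, 0 in place of 1 was lower in plasma-marker cells than in the other secretory classes, and 2 in place of 1 were highest in hepatocyte-marker cells. That last count was also 2 with cells of several gates kept in the class with the larger share and with a mean over cells, and 3 with cells thinned to 1000 UMIs. Genes higher in mesothelial-marker cells numbered 5 with a mean over cells, 8 with thinning, 4 with an offset of 5 CPM and 5 with the other classes weighted equally, in place of 2; lower ones numbered 5 with the smaller offset and 5 with equal weights, in place of 3. With thinning 2, and with an offset of 5 CPM 3, genes in place of 1 were lower in plasma-marker cells than in the other secretory classes, and with that offset 1 in place of 0 was lower than in all others. With equal weights 1 in place of 2 was higher in hepatocyte-marker cells. Shares of all genes were not counted under changed gates, a mean over cells, thinning, the smaller offset or equal weights. The counts under these settings therefore have no background beside them. In high-albumin cells alone 7, and in low-albumin cells alone 25, in place of 12 were lower than outside the gate. Divided by other hepatocyte markers in place of albumin, the number of genes higher on the side with more of the marker was 0 by Cps1, Ass1 and Apoc3, 1 by Cyp3a11 and Cyp2c29, 5 by Ttr and 8 by Serpina3k, in place of 19, and by Ass1 20 in place of 0 were lower, so the albumin comparison changed direction. Of all genes tested 1.02% were higher by Cyp3a11, 0.23% by Cyp2c29, 2.13% by Ttr and 2.16% by Serpina3k. The causes were not tested. No paired analysis was possible because the 6 CluKO samples are pooled without sample names, and leaving out a replicate was not possible for the same reason. Depth limits the rarest genes: Chac1 had 64 UMIs in all.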
